A study of Mus musculus with 70 samples.

Results

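RENCA cells recovered from kidney tumors were compared with RENCA cells recovered from lung colonies seeded through the tail vein, both after the fourth passage in mice (P4). RENCA is a renal carcinoma line of the BALB/c mouse. The comparison comprised 7 of the 70 arrays of the series, chosen by their titles: 3 kidney primary tumor cell lines (KPT, replicates 1, 3 and 5) and 4 tail-to-lung-metastasis cell lines (T-LM, replicates 1, 2, 3 and 4). All groups carried eGFP from a lentiviral vector and were grown in wild type female BALB/c mice of 6 weeks. For KPT, cells were placed beneath the capsule of the left kidney and taken back from the tumor there. For T-LM, cells entered the blood through the tail vein and were taken back from the lungs, with no kidney tumor present. A further route, K-LM (kidney injection, recovery from lung metastases), gave 3 further P4 arrays, and the parental line before any passage (P0) gave 2. Per the methods, tissue was digested with collagenases and cultured for about 2 weeks until GFP-negative cells were no longer seen, whereas the labels describe homogenization with a tissue disruptor, and the labels and the methods give different cell numbers for the vein injection. The labels number the samples without tying them to individual mice, so every p-value below measures a spread between samples. In the limma fits that spread is pooled over all arrays fitted. Most of these fits include K-LM, and the fits of 51 arrays also include other passages.

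The kidney capsule and the lung bring tumor cells into contact with different host cells. In the lung, injected cells meet a capillary bed, alveolar epithelium that makes surfactant, and resident alveolar macrophages, and they bypass the steps of leaving a primary tumor. Clear cell renal carcinoma is known for loss of the VHL protein, which marks the hypoxia-inducible factors (HIF) for destruction. Tumor cells and fibroblasts under inflammatory or hypoxic stimulation are known to secrete acute phase proteins, chemokines, proteases and antagonists of bone morphogenetic proteins.

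Each value below is a level, the processed signal of a probe on the log2 scale relative to its array's 75th percentile, so that a negative level means a signal below that percentile and levels compare samples, not genes. A difference is T-LM minus KPT. Between 31.1% and 36.1% of probes were well above background on the 7 arrays. The 75th percentile intensity over all probes, a different reference, ran from 314 to 565. The arrays lay on 7 different slides, so slide and route could not be compared within a slide at P4. Array levels correlated at 0.9574 to 0.9735 among KPT, 0.9749 to 0.9885 among T-LM and 0.9316 to 0.9828 between them. The balance of long mRNAs against ribosomal protein mRNAs, a reading of RNA integrity and labelling, was −6.82 ± 0.15 in KPT (SD, n = 3) and −7.65 ± 0.34 in T-LM (SD, n = 4), with no overlap. Of 15 tested long mRNAs, 15 were lower in T-LM, 10 of them without overlap (KPT-higher levels without overlap made up 11% of all symbols), and their median difference was −0.79 against −0.07 over all probes. The part of this shift in the results below was not tested at P4 alone.

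Route accounted for 35.6% of the summed squared distance between the 7 arrays over 20616 probes. This was the largest share among the 35 possible assignments of the labels (exact permutation test, 1-sided p = 0.0286, the smallest p this design allows). Gene by gene the difference was harder to resolve. In the limma fit of the 10 P4 arrays, 8 of 20590 probes passed an adjusted p of 0.01 (0.0389%), 4 higher in T-LM (0.0194%) and 4 higher in KPT (0.0194%), while 2312 had an unadjusted p under 0.05. Levels of T-LM lay wholly above those of KPT for 1267 probes (6.15%) and wholly below for 2078 (10.1%). The 8 probes stood for Arg1, Ear2, Sftpd and Thrsp, higher in T-LM, and for Mbnl3 (2 probes), Ush1c and a transcript without a gene symbol, higher in KPT. Counted by symbol, 6 of 11610 were called (0.0517%). A gene that is bright in 1 group only passed the background filter through that group.

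Among the genes called higher in T-LM, Ear2, an eosinophil-associated ribonuclease also made by alveolar macrophages, was the most uniform. Its level was −5.58, −5.55, −5.42 and −5.46 in T-LM replicates 1 to 4 and −9.04, −9.27 and −9.07 in KPT replicates 1, 3 and 5, where it was not well above background. All T-LM arrays stood far above all KPT arrays. With the KPT signal taken at the lowest signal well above background on each array, or at its own value if that was higher, Ear2 was at least 2.52-fold higher in T-LM (limma adjusted p = 4.79e-05). The call held when any 1 of the 7 arrays was left out (adjusted p up to 0.000887), alone among the 8 probes. It was lost when dim signals were raised to a higher floor, the 5th percentile of the signals well above background on each array, which left a difference of 0.79 ± 0.19 (SE; limma adjusted p = 0.136). The bound thus rests on the lower floor.

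Arg1, the arginase of macrophages and liver, was bright on every T-LM array. T-LM replicates 1 to 4 were at −1.77, −0.89, −0.48 and −1.98, against −5.50, −6.94 and −8.70 in KPT replicates 1, 3 and 5, of which 1 array was well above background. The KPT arrays thus differed among themselves by more than the T-LM arrays did. The difference was 5.76 ± 0.64 (SE; limma adjusted p = 0.00797), or 4.78 ± 0.37 with the higher floor (adjusted p = 0.000508). The call was kept only when KPT replicate 1 was left out, with an adjusted p of up to 0.0445 in the other cases. In K-LM, Arg1 was at −8.43, −8.93 and −8.65, and at P0 its mean was −7.85, neither well above background.

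Sftpd encodes surfactant protein D, a collectin of the alveolar lining. Its level was −6.28, −4.52, −5.00 and −5.92 in T-LM and −9.06, −9.31 and −9.05 in KPT, so that this probe was detected on every T-LM array and on no KPT array. A second Sftpd probe was detected on 2 of 4 T-LM arrays and was not called (1.76 ± 0.34; limma adjusted p = 0.0822). By the brighter probe Sftpd was at least 2.65-fold higher in T-LM (adjusted p = 0.00552), and of the fits without 1 array only that without T-LM replicate 1 kept the call. The call was also lost with normexp (adjusted p = 0.0154), with the series values (0.0221) and with the higher floor, where the difference was 0.89 (0.419). Thrsp, a nuclear protein tied to fatty acid synthesis, was at −4.86, −4.03, −5.15 and −4.90 in T-LM and at −8.88, −8.50 and −7.69 in KPT. It was at least 4.29-fold higher in T-LM (limma adjusted p = 0.00552), a call kept without 1 array only when that was KPT replicate 5, and lost with the higher floor (1.56; adjusted p = 0.0519). Both genes were at background in K-LM, with Sftpd between −8.93 and −8.57 and Thrsp between −8.90 and −7.85.

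Of the genes called higher in KPT, Mbnl3, a muscleblind-like regulator of RNA splicing, was detected on every array of both groups, at −2.90, −2.41 and −3.05 in KPT and at −5.44, −6.26, −6.49 and −5.95 in T-LM. Its difference was −3.25 ± 0.28 (SE; limma adjusted p = 0.00262), kept in 3 of the 7 fits that left out 1 array, those without T-LM replicate 1, T-LM replicate 3 or KPT replicate 5. At P0 Mbnl3 was at −8.00 and not well above background, so that KPT stood above the parental line as well, and K-LM lay between the routes at −4.85, −4.86 and −4.48. Its relatives overlapped between the routes, with a difference of −0.20 ± 0.23 for Mbnl1 and −0.01 ± 0.20 for Mbnl2 (limma adjusted p = 0.784 and 0.991). Ush1c encodes harmonin, a scaffold of microvilli and of hair cells. It was at −6.0, −6.34 and −6.07 in KPT and at −7.89, −8.70, −8.73 and −8.32 in T-LM, where no array was well above background. A second Ush1c probe was detected on none of the 7 arrays. The called probe passed at an adjusted p of 0.00552 (limma; kept without 1 array only when that was T-LM replicate 1), with a bound of at least 1.58-fold over the lower floor. With the higher floor its difference was −0.06 (adjusted p = 0.953), and the call was lost with normexp (0.0579) and the series values (0.0397), so that the size of the Ush1c difference was not resolved.

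**Figure D1:**
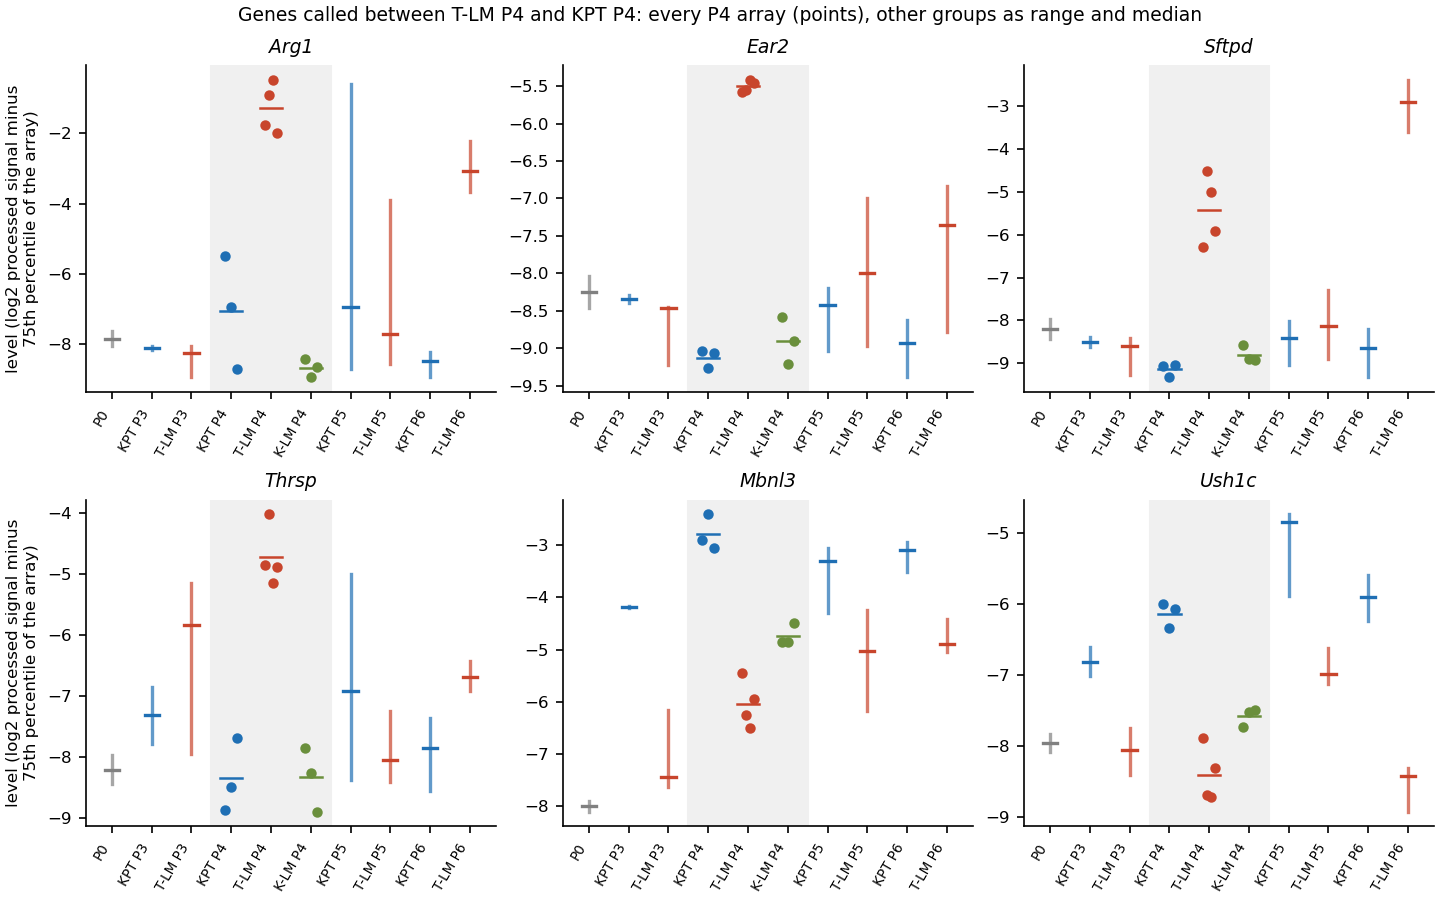
Levels (log2, relative to each array's 75th percentile over 11289 probes) of the 6 named genes called at P4. Points are the P4 arrays with their mean as a line, shaded, and the other groups are drawn from lowest to highest array with the median as a tick; Among the P4 groups Arg1, Ear2, Sftpd and Thrsp are highest in T-LM and Mbnl3 and Ush1c in KPT, while Arg1 and Sftpd are also high in T-LM P6 (means −3.01 and −2.95).

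Of the transcripts the study carried forward, Saa2, an acute phase serum amyloid, was too dim to be tested. It was at −7.21, −6.78, −6.09 and −7.24 in T-LM, with 1 array well above background, and at −8.29, −8.95 and −8.69 in KPT, with none. Cfb, complement factor B of the alternative pathway, was at −4.72, −4.66, −4.40 and −4.37 in T-LM and at −6.68, −6.21 and −8.71 in KPT. The Cfb levels did not overlap, yet the difference of 2.66 ± 0.77 was not called (SE; limma adjusted p = 0.239). This fit pools the spread of all 3 routes, and Cfb spread most in K-LM (SD 1.82, against 1.32 in KPT and 0.18 in T-LM). In the fit of the 7 arrays only, the SE was 0.52 and the limma adjusted p 0.0557. Vhl differed by 0.06 ± 0.23 and Epas1, which encodes HIF-2 alpha, by −0.06 ± 0.17 (limma adjusted p = 0.941 and 0.922). Hif1a differed by 0.63 ± 0.41 (adjusted p = 0.598). Levels of Vhl, Hif1a and Epas1 overlapped between the routes.

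The P4 arrays alone give few degrees of freedom, so the same contrast was also fitted on the 51 arrays of P0 and P2 to P6, which share 1 estimate of the spread. There 180 of 20102 probes were called (0.895%), 101 higher in T-LM (0.502%) and 79 higher in KPT (0.393%). With slide as a block 122 were called (0.607%), and with the RNA balance as a covariate 156 (0.776%), of which 62 were higher in KPT (0.308%). In all 3 of these fits 74 of the 20102 probes were called, 46 higher in T-LM and 28 higher in KPT. Of the 74, 73 had levels that did not overlap, against 16.2% of the 20590 probes tested at P4. The calls and the overlap use the same 7 arrays, so the lack of overlap is not separate support. The 74 probes include 7 of the 8 probes above, Thrsp being absent for want of a usable spot on 1 P5 array. The genes named from here on lie outside the rule for named genes and were chosen after their values were seen. Calls below are those of the fit of 51 arrays unless another is named. Fold bounds below rest on the lower floor, and their values with the higher floor are not given.

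Part of the acute phase genes was higher in T-LM. Of 12 tested acute phase genes 3 were called higher in T-LM and 0 higher in KPT (1 probe per symbol over all genes: 0.629% and 0.413%), and the median difference of the list was 0.90 against −0.07 over all probes. Saa3, the serum amyloid of macrophages and stroma, was at 0.65, 0.73, 0.87 and 1.03 in T-LM and at −1.20, −2.33 and −3.68 in KPT, a difference of 3.22 ± 0.69 (SE; limma adjusted p = 0.0051). T-LM was uniform, while KPT spread widely. Saa1 differed by 2.64 ± 0.53 (adjusted p = 0.00309) and Lrg1, a leucine-rich glycoprotein of inflamed tissue, by 2.84 ± 0.40 (adjusted p = 2.35e-05). With the RNA balance as a covariate, Lrg1 was still called (adjusted p = 6.32e-05) and Saa1 and Saa3 were not (0.0123 and 0.0193). In K-LM, Saa1 was at −1.19, 0.44 and 1.62 and Saa3 at 1.40, 2.57 and 3.69, with every Saa3 value above those of T-LM. Lcn2, another acute phase gene, had overlapping levels (difference 0.03 ± 0.41).

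The tested complement genes had a median difference of 0.90, and 5 of 16 lay higher in T-LM without overlap and 0 higher in KPT (6.94% and 11% of all symbols). Cfb was called in this fit (2.66 ± 0.57, SE; limma adjusted p = 0.00534) and with slide as a block (0.00955), but not with the RNA balance as a covariate (0.0196). C3, the central component, overlapped between the routes (0.26 ± 0.35).

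Chemokine genes held few calls, and the uncalled Ccl6 spread widely within KPT. Of 11 CXC and CX3C chemokines 1 was called higher in T-LM and 0 higher in KPT (0.629% and 0.413% of all symbols). Ppbp, a platelet chemokine, was at −4.99, −4.60, −3.13 and −5.43 in T-LM and −7.00, −7.93 and −8.14 in KPT, where no array was well above background, and was at least 4.92-fold higher in T-LM (limma adjusted p = 7.16e-05). The scavenging receptor Ackr3, which clears CXCL12, was at −2.49, −0.76, −1.91 and −1.81 in T-LM and −5.16, −6.52 and −6.60 in KPT, a difference of 4.35 ± 0.56 (SE; adjusted p = 6.67e-06, called in all 3 fits). Cxcl12 itself was detected on every T-LM array, between −4.80 and −1.55, and on no KPT array, but was not called (adjusted p = 0.037). No gene of the 11 CC chemokines was called. Ccl6, a myeloid chemokine, was at 0.07 and 0.08 in KPT replicates 1 and 3, close to T-LM at 0.52 to 2.01, and at −8.17 in KPT replicate 5. Il33, an alarmin cytokine, was detected on every T-LM array, from −5.29 to −4.30, and on no KPT array. It was at least 4.11-fold higher in T-LM (limma adjusted p = 0.00121, called in all 3 fits).

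Matrix proteases and secreted antagonists of growth factors held some of the widest differences. Mmp3, stromelysin, was at −3.46, −1.73, −2.53 and −2.59 in T-LM and −7.00, −7.41 and −7.01 in KPT. It was at least 19.1-fold higher in T-LM (limma adjusted p = 0.000577, called in all 3 fits), the 1 gene called among 21 metalloproteinases and inhibitors, whose median difference was 1.06. Of 32 genes of the TGF-beta and BMP pathways 2 were called higher in T-LM and 0 higher in KPT (0.629% and 0.413% of all symbols), and the list median was 0.29. Both encode secreted antagonists. Grem1, which binds bone morphogenetic proteins, was at −4.07, −1.60, −2.34 and −2.31 in T-LM and −5.99, −7.92 and −8.93 in KPT (5.03 ± 1.03, SE; limma adjusted p = 0.00336). Fst, which binds activin, was near −2.82 on every T-LM array (SD 0.15), against −5.39, −8.97 and −8.99 in KPT (4.96 ± 1.12; adjusted p = 0.00898). Neither was called in all 3 fits, Grem1 being lost with slide as a block (adjusted p = 0.0129) and Fst with the RNA balance (0.0275). Of 16 WNT genes, Rspo3, a secreted amplifier of WNT signaling, and Wnt4 were called. Rspo3 was at least 4.21-fold higher in T-LM (limma adjusted p = 0.004) and Wnt4, detected on 2 of 4 T-LM arrays, at least 2.00-fold (adjusted p = 0.00225). Neither was called with the RNA balance as a covariate (0.0107 and 0.0112).

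**Figure D2:**
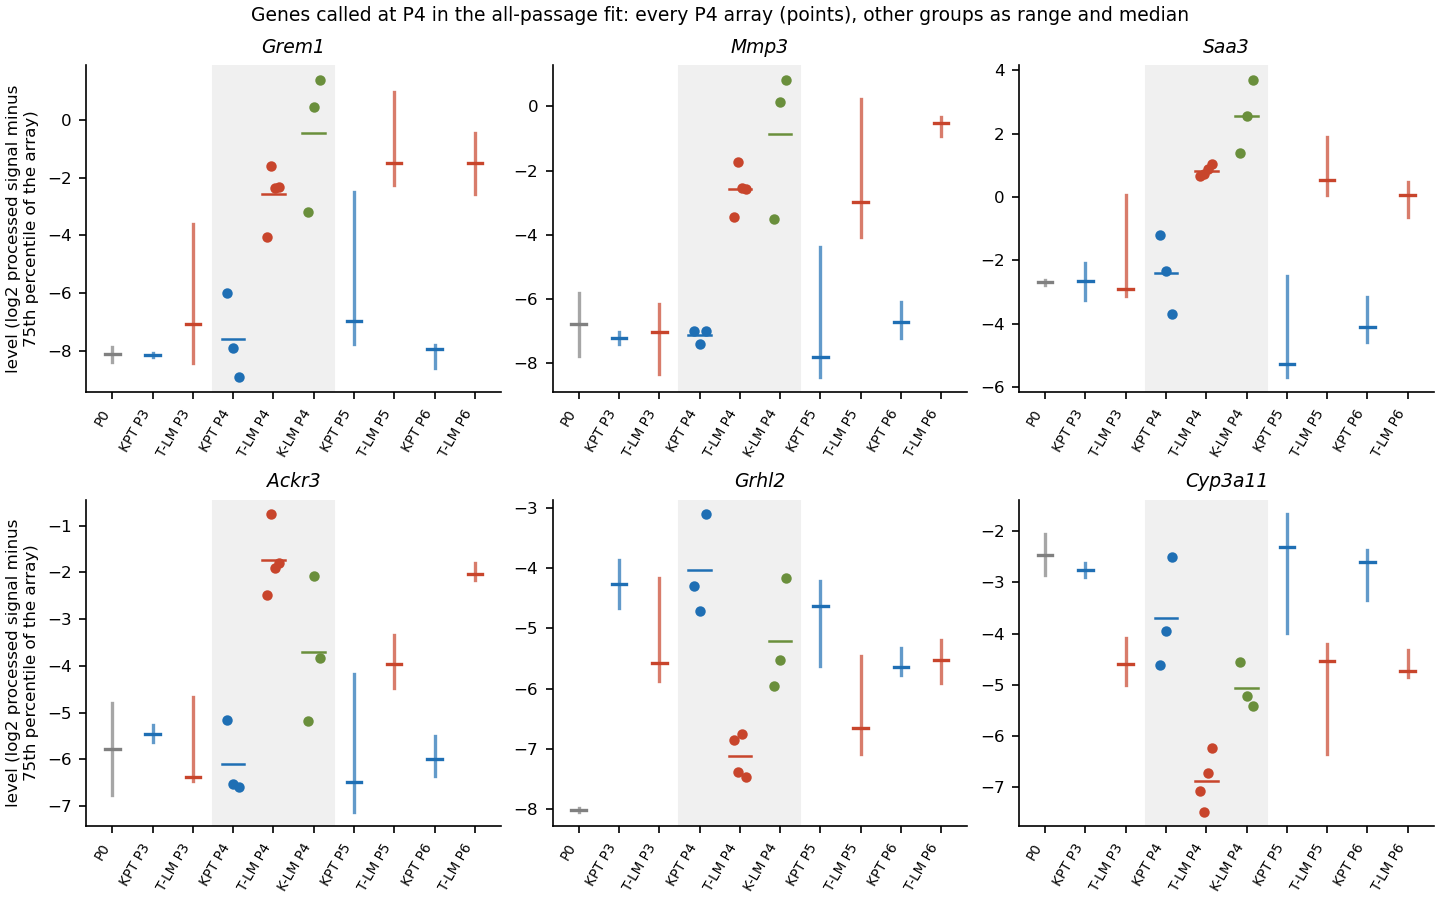
Levels (log2, relative to each array's 75th percentile over 11289 probes) of 6 genes called at P4 in the fit of 51 arrays. Points are the P4 arrays with their mean as a line, shaded, and the other groups are drawn from lowest to highest array with the median as a tick; Grem1, Mmp3 and Saa3 are high in T-LM and in most K-LM arrays, while Grhl2 and Cyp3a11 are lowest in T-LM P4 among the P4 groups.

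Genes of protein folding in the endoplasmic reticulum held 3 calls. Of 32 stress response genes 3 were called higher in T-LM and 0 higher in KPT (0.629% and 0.413% of all symbols), while the list had a median difference of −0.03. Without regard to calls, 9 lay higher in T-LM without overlap and 2 higher in KPT (6.94% and 11% of all symbols), the latter being Mthfd2 and Slc7a11. Creld2, a disulfide isomerase, was at 2.28, 2.07, 2.95 and 2.40 in T-LM and 1.15, 0.56 and 0.74 in KPT, a difference of 1.61 ± 0.22 (SE; limma adjusted p = 1.48e-05). Sdf2l1, a partner of the chaperone BiP, differed by 1.77 ± 0.28 (adjusted p = 0.000139) and the secreted factor Manf by 1.18 ± 0.23 (adjusted p = 0.00167). Creld2 and Sdf2l1 were called in all 3 fits. Hspa5, which encodes BiP, did not overlap (2.25 to 3.15 in KPT, 3.49 to 3.84 in T-LM) but was not called (adjusted p = 0.0713). Of 23 immediate-early genes, the transcription factor gene Fos was called, at −1.31, −0.87, −1.18 and −1.40 in T-LM and −3.60, −4.31 and −4.20 in KPT (2.85 ± 0.49; limma adjusted p = 0.000485).

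Hypoxia and glycolysis genes leaned to T-LM without many calls. Of 34 tested genes, 28 had a positive difference, 14 lay higher in T-LM without overlap and 0 higher in KPT (background 6.94% and 11% of symbols), and the median difference was 0.37. Only Ankrd37, an ankyrin repeat gene that responds to HIF, was called, at −3.28, −2.81, −3.11 and −2.80 in T-LM and −5.97, −5.31 and −5.21 in KPT (2.5 ± 0.49, SE; limma adjusted p = 0.00193, called in all 3 fits). Of 8 VHL and HIF genes 7 were tested and 0 called. The promoters of 4 of these genes are shown because HIF is known to bind the core ACGTG, given in capitals (CACGT where the match is on the other strand). Each is the 250 bases before the gene start, 5′ to 3′ on the strand of the gene, from RefSeq on GRCm38.p6.
Slc16a3 (chr11:120948817-120949066, plus strand): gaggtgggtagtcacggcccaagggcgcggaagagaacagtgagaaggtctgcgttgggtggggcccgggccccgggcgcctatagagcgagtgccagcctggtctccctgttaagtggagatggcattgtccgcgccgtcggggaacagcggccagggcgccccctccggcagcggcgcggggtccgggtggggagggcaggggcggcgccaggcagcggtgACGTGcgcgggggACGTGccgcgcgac
Egln3 (chr12:54203875-54204124, minus strand): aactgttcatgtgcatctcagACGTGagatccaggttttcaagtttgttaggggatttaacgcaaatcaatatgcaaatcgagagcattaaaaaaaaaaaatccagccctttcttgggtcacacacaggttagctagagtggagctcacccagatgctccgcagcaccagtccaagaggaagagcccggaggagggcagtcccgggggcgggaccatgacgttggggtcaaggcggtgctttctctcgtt
Ankrd37 (chr8:45999851-46000100, minus strand): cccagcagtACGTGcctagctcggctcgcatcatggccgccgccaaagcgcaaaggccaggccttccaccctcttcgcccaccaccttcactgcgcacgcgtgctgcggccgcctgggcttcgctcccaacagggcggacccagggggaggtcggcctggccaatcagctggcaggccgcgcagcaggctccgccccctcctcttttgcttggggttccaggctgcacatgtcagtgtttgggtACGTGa
Car9 (chr4:43506776-43507025, plus strand): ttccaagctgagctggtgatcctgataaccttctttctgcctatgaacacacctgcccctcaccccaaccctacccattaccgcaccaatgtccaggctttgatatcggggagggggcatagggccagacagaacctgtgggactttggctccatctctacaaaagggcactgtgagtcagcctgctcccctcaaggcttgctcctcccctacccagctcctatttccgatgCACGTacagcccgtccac
A match on either strand in this window was held by 13 of the 31 tested hypoxia genes in the promoter table (41.9%) and by 7 of the 13 that lay higher in T-LM without overlap (53.8%), against 16.6% of 27025 promoters. The genes were listed as known HIF targets, so neither share can be read against that of all promoters. The second share is a part of the same list, and its difference from the first was not tested. A match is a run of letters and not a bound site. Slc16a3, the lactate exporter MCT4, has 2 copies close to the gene start. It was at −1.89, −0.02, −1.64 and −1.27 in T-LM and −2.57, −3.15 and −7.93 in KPT, and KPT replicate 5 set the size of its difference (3.34 ± 1.26, SE; limma adjusted p = 0.165). Egln3, a prolyl hydroxylase that marks HIF, was detected on every T-LM array, from −4.40 to −3.54, and on no KPT array (adjusted p = 0.02). Car9, carbonic anhydrase 9, was at −2.95, −2.32, −2.41 and −3.09 in T-LM and −5.14, −3.90 and −5.09 in KPT (2.02 ± 0.47; adjusted p = 0.0118). None of these 3 was called. Vegfa and Ndrg1, further HIF targets, overlapped between the routes.

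Genes higher in KPT included an epithelial regulator and a cluster of cytochromes. Grhl2, a grainyhead transcription factor that maintains epithelial junctions, was at −4.29, −4.72 and −3.11 in KPT and −6.86, −7.38, −6.75 and −7.47 in T-LM (−3.07 ± 0.40, SE; limma adjusted p = 7.88e-06, called in all 3 fits). Of 22 tested epithelial genes, Grhl2 was called higher in KPT and the mucin gene Muc1 higher in T-LM (0.413% and 0.629% of all symbols). The list median was −0.10. The Muc1 levels overlapped, and its call was lost with slide as a block (0.0186) and with the RNA balance (0.022). The keratins Krt8 and Krt18 overlapped between the routes, and Cdh1 and Epcam were not well above background on any of the 7 arrays. Cyp3a11, a steroid- and drug-oxidizing cytochrome, was at −4.61, −3.95 and −2.51 in KPT and −7.07, −7.48, −6.73 and −6.24 in T-LM, where no array was well above background. It was at least 7.80-fold higher in KPT (limma adjusted p = 0.000137). Cyp3a16, Cyp3a41b and Cyp3a59 followed at 6.82-fold, 6.14-fold and 2.84-fold as lower bounds, but these relatives are similar in sequence and their probes may read the same transcript. At P0 Cyp3a11 was already at −2.46, so T-LM lay below the parental line. Zap70, a T cell receptor kinase, was at −5.57, −5.34 and −5.14 in KPT and between −8.79 and −7.79 in T-LM, at least 2.73-fold higher in KPT (adjusted p = 0.000684). The lysophosphatidic acid receptor gene Lpar4 differed by −2.04 ± 0.35 (adjusted p = 0.00054).

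In several further groups no gene passed the test. None was called in the interferon-stimulated (35 tested), cell cycle (40), integrin (14), contractile (26), cholesterol (26) or interstitial collagen (14) lists. Of the 26 contractile genes 9 lay higher in T-LM without overlap and 2 higher in KPT (6.94% and 11% of all symbols), with a list median of 0.28. Some single genes spread widely within KPT. Col1a1 was at −0.29, −2.89 and −8.02 in KPT and −1.05 to 1.02 in T-LM, and Myl9, the smooth muscle light chain, at −0.82, −4.46 and −6.37 in KPT and −0.65 to 1.11 in T-LM. The Col1a1 difference was 3.66 ± 1.51 (SE; adjusted p = 0.215) and that of Myl9 4.06 ± 1.42 (adjusted p = 0.125).

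**Figure D3:**
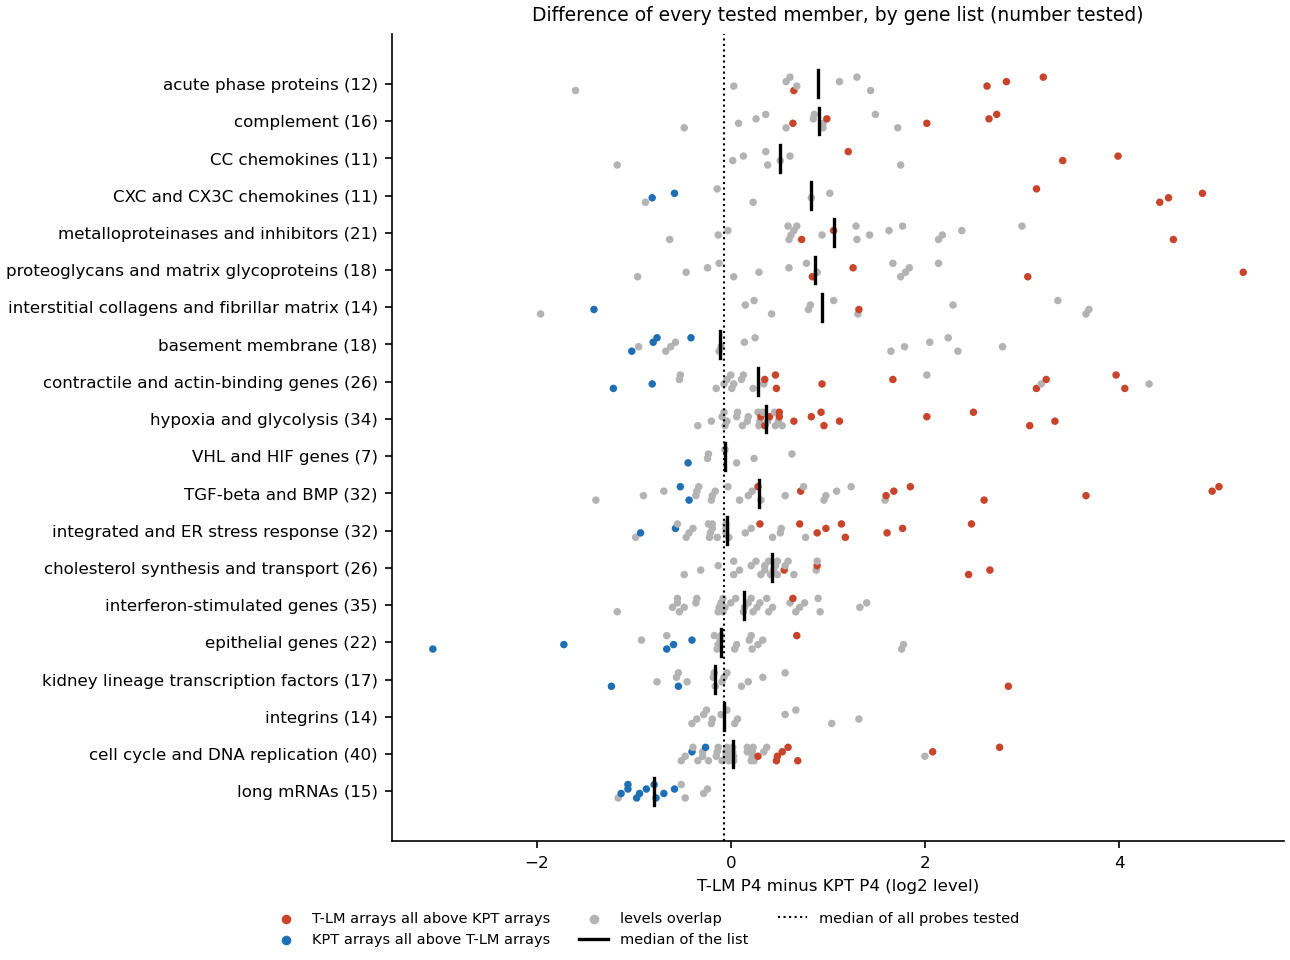
Difference T-LM P4 minus KPT P4 (log2 level, fit of the 10 P4 arrays) of every tested member of 20 gene lists, 1 point per gene. Red and blue points are genes whose T-LM and KPT arrays do not overlap, black bars list medians and the dotted line the median of all probes (−0.07); acute phase (0.90), complement (0.90) and metalloproteinase (1.06) medians lie right of it and long mRNAs (−0.79) left.

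Some markers of host cells moved in the same direction as these genes. In bulk RNA, fewer cells of a type and less RNA per cell cannot be told apart. The summed level of 12 fibroblast markers was 2.01, 0.74 and −1.0 in KPT replicates 1, 3 and 5, and 2.46, 3.47, 1.44 and 2.15 in T-LM replicates 1 to 4. The ranges overlapped, with KPT replicate 5 at the level of P0 (−1.29 to −1.05). Of these markers 9 were detected on every T-LM array and 4 on every KPT array. Of the 10 tested fibroblast markers 9 had a positive and 1 a negative difference, and 0 were called. Pdgfra, Lum and Fap lay higher in T-LM without overlap and 0 higher in KPT (6.94% and 11% of all symbols). These 3 were detected on no KPT array. For 27 leukocyte and macrophage markers the sum was 2.69, 3.25 and 1.97 in KPT and 2.65 to 3.09 in T-LM, with 20 detected on every T-LM array and 10 on every KPT array. The defining markers Ptprc, Csf1r, Cd68 and Adgre1 overlapped between the routes. Mrc1, the mannose receptor of tissue macrophages, was at −5.65, −4.71 and −8.91 in KPT and −4.64 to −4.02 in T-LM. Of the 21 tested markers of this list 14 had a positive and 7 a negative difference, and 0 were called. Lyz2 and Mrc1 lay higher in T-LM without overlap and Cd74 higher in KPT (6.94% and 11% of all symbols). Chil3, a chitinase-like protein of alveolar macrophages outside the list, was at least 2.36-fold higher in T-LM (limma adjusted p = 0.000752). Also looked up outside the list, Ear1, Ear3, Ear10, Chil4, Marco, Siglecf, Krt79 and Fabp4 were not among the genes called. Of 14 lung epithelium markers 4 were detected on every T-LM array and 3 on every KPT array, with sums of −0.12 to 0.23 and −0.59 to 0.22. Of the 5 tested, Sftpd, Ager and Napsa lay higher in T-LM without overlap and 0 higher in KPT (6.94% and 11% of all symbols). Sftpd and Ager were called (0.629% of all symbols), Ager with a difference of 1.81 ± 0.40 (SE; limma adjusted p = 0.00778). The Ager call was lost with slide as a block (0.0119) and with the RNA balance (0.0241). Sftpc and Sftpb, which define alveolar type II cells beside Sftpd, were well above background on T-LM replicate 2 only, at −4.36 and −5.99. The part of host cells in the differences of Arg1, Ear2, Sftpd and the matrix genes was not tested.

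**Figure D4:**
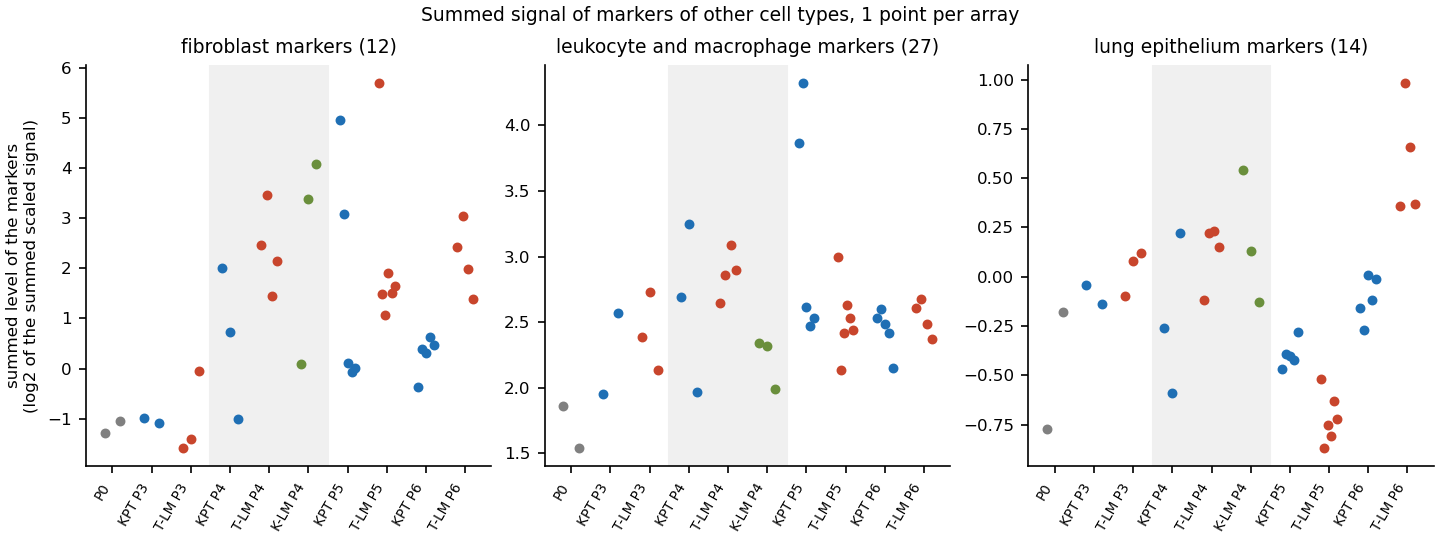
Summed level (log2 of the summed scaled signal) of 12 fibroblast, 27 leukocyte and macrophage, and 14 lung epithelium markers, 1 point per array and the P4 groups shaded. Fibroblast sums reach 3.47 in T-LM P4 against 2.01 in KPT P4, and for fibroblast and leukocyte markers 3 P5 arrays stand above the rest of their groups.

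The samples of P5 and P6 show which P4 differences recurred. They are separate arrays, although the P4 lines are ancestors of later passages by the design of the study. The calls at all 3 passages come from 1 fit and share its estimate of the spread of each probe. They are therefore not independent of each other. In a fit of 21427 probes, 187 were called at P4 (0.873%), 1423 at P5 (6.64%) and 823 at P6 (3.84%). Of the 106 probes higher in T-LM at P4, 68 were also higher at P6 (64.2%, against 2.85% of all probes) and 16 at P5 (15.1%, against 2.47%), while 3 were called in the opposite direction at P5. Of the 81 probes higher in KPT at P4, 19 were also higher at P5 (23.5%, against 4.17%) and 15 at P6 (18.5%, against 0.994%). The difference between these shares was not tested.

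Mmp3, Grem1 and Saa3 were higher in T-LM at all 3 passages, by 4.50, 4.29 and 4.98 at P5 (limma adjusted p = 6.64e-06, 0.000389 and 4.92e-08). At P6 Mmp3 and Saa3 differed by 6.20 and 3.95 (3.72e-08 and 1.45e-05), and Grem1 had a mean of −1.50 in T-LM and was not well above background on any KPT array (1.55e-06). Ackr3 differed by 2.01 at P5 and 3.99 at P6 (adjusted p = 0.00171 and 2.31e-07). Mbnl3 was lower in T-LM by −1.47 at P5 and −1.59 at P6 (adjusted p = 0.000843 and 0.00123). Ush1c was called higher in KPT at both (1.33e-05 and 3.11e-08), with 4 of 5 KPT arrays and no T-LM array well above background. Cyp3a11 was also lower in T-LM at both passages, by −2.18 and −1.93. Arg1 and Sftpd were not called at P5. At P6 both were called (limma adjusted p = 9.2e-05 and 3.67e-17), with means of −3.01 and −2.95 in T-LM and no KPT array well above background. Grhl2 kept its direction at P5, with −1.65, and was near 0 at P6, with 0.06 (limma adjusted p = 0.984). Creld2 and Sdf2l1 were called at P4 and at neither later passage, with −0.17 and −0.02 at P5 and −0.06 and −0.44 at P6.

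Whether the route difference itself changed between passages was tested as an interaction. From P4 to P5 it changed for 128 probes (0.597%), 42 toward T-LM and 86 toward KPT (44 and 43 with normexp, 48 and 62 with the percentile over all probes), and from P4 to P6 for 28 (0.131%), 20 toward T-LM (0.0933%) and 8 toward KPT (0.0373%). With slide as a block these counts fell to 48 and 5. From P4 to P5 the difference of Arg1 changed by −7.49 ± 1.39 (SE; limma adjusted p = 0.00158). Nos2, the inducible nitric oxide synthase, and Cxcl1, a neutrophil chemokine, had differences of −0.43 and 0.23 at P4 and of 4.58 and 4.41 at P5 (changes of 5.01 ± 0.68 and 4.18 ± 0.68; limma adjusted p = 3.82e-05 and 0.000302). With slide as a block the change of Nos2 was still called (0.000319) and that of Cxcl1 was not (0.0252). For Lcn2 the change was 3.45 ± 0.53 (adjusted p = 0.000139). By P6 the change was 3.13 ± 0.53 for Grhl2, −1.67 ± 0.29 for Creld2 and −2.21 ± 0.38 for Sdf2l1 (limma adjusted p = 0.00163, 0.00186 and 0.0016). None of these 3 passed with slide as a block (0.0425, 0.0425 and 0.113). Sftpc, the surfactant protein of type II cells, was well above background on every T-LM P6 array (mean −2.76) and on no KPT array of P4 or P6, and its change (adjusted p = 0.00196) was lost with slide as a block (0.259).

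At P5, KPT replicates 1 and 2 and T-LM replicate 1 stood apart, with median correlations to their group of 0.9414, 0.9485 and 0.9496 against 0.9667 or more for the others, and with fibroblast sums of 4.97, 3.08 and 5.69. Without these 3 arrays, a setting chosen after seeing the data, 260 probes changed from P4 to P5, and the difference of Arg1 at P5 was 0.25 ± 0.44 in place of −1.73. Arg1 still changed, by −5.51 ± 0.64 (limma adjusted p = 1.12e-06). Ear2 and Sftpd also passed (0.000335 and 3.47e-05), but both were at background in KPT at P4 and P5 and in T-LM at P5, and neither change passed with the higher floor in the fit of all arrays (0.638 and 0.622). The fit without the 3 arrays called 400 probes at P4, 250 higher in T-LM and 150 higher in KPT. Of these, 50 and 46 were called in the same direction at P5, against 3.42% and 5.02% of all probes. At P5, 207 of the 250 and 131 of the 150 kept their sign, with median differences of 0.6 and −0.61. With all arrays, 67 of 106 and 74 of 81 kept it, with medians of 0.24 and −0.56. The probe sets differ, because each fit made its own calls at P4.

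**Figure D5:**
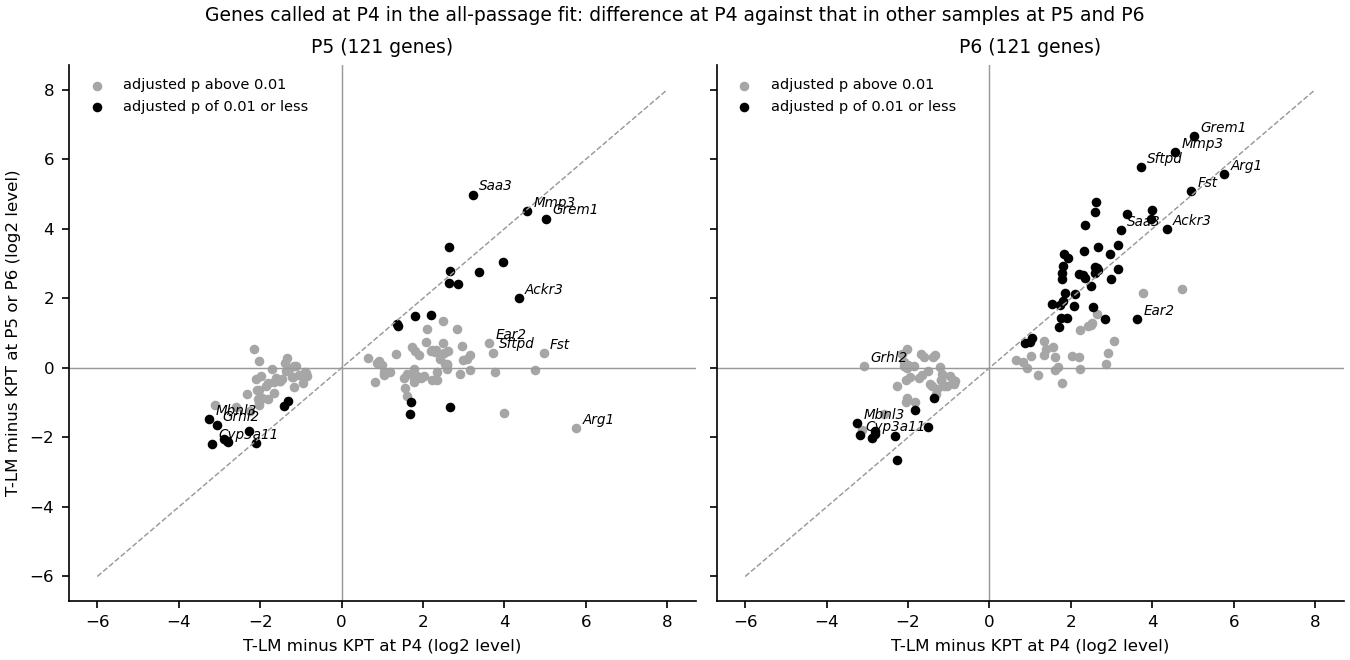
T-LM minus KPT difference (log2 level) at P4 against that at P5 (left) and P6 (right) for the 121 genes called at P4 in the fit of 51 arrays, which chose them. Black points pass an adjusted p of 0.01 at the later passage (27 genes at P5, 57 at P6) and the dashed line marks equal differences. With all P5 arrays included, most genes higher in T-LM at P4 lie near the line at P6 and near 0 at P5.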

How the data were processed

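Cy5-labelled RNA was hybridized to 1-color Agilent SurePrint G3 mouse arrays. The deposited scanner files hold spot intensity, which the authors' scanner software had background-subtracted. The authors' series table was deposited as log2 values, which matched the quantile-normalized raw median intensity to within 0.107 and were used as an alternative. Control spots (3671 of 62976) were left out and spots averaged into 55681 probes, of which 28020 matched a symbol in RefSeq (GRCm38.p6, names only). Processed intensities were put on the log2 scale and centered on each array's 75th percentile over 11289 probes well above background on all 70 arrays. Probes well above background on at least 2 of the 7 compared arrays were tested with limma 3.58.1 (R 4.3.3) and Benjamini-Hochberg adjustment at 0.01, the threshold of the study, on 10 P4 arrays (20590 probes; 73 were left out for outlier spots). For each symbol the brightest probe was taken. Further fits used 51 arrays of P0 and P2 to P6, with slide or the RNA balance (16 long against 77 ribosomal protein mRNAs) added. The number of arrays limits the precision. Alternatives were other scalings, background correction (normexp, offset 50, on median signals because mean signals were not in the columns used), filters, blocks and leaving out each array. Named genes were those called without overlap, up to 4 called members of each list, and Saa2, Cfb, Vhl, Hif1a and Epas1. The members and lists were chosen with earlier results of these data known. The scripts were tested on simulated data.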

Additional observations from a re-analysis of the deposited data

Results flagged for a closer look

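The T-LM minus KPT difference at P4 was compared with that at P5 and P6 by an interaction term in limma, and the following differed between passages. From P4 to P5 it changed for 128 probes and from P4 to P6 for 28 probes. Among the genes called at P4, Arg1 changed by −7.49 ± 1.39 (SE; limma adjusted p = 0.00158), Sftpd by −3.27 ± 0.44 (adjusted p = 3.77e-05) and Ear2 by −2.90 ± 0.46 (adjusted p = 0.00018) from P4 to P5. At P5 the mean level of Arg1 was −5.47 in KPT and −7.20 in T-LM, that of Sftpd −8.55 and −8.11, and that of Ear2 −8.60 and −7.87. Sftpd and Ear2 were not well above background on any KPT P4, KPT P5 or T-LM P5 array, so the sizes of their changes rest on background, and with dim signals raised to the 5th percentile of signals well above background neither changed significantly (adjusted p = 0.622 and 0.638). Arg1 still changed under that floor (adjusted p = 0.000177).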

How the results depend on the processing

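The count of 8 probes called at P4 became 5 with normexp, 2 with a filter on every array, 25 in a fit of the 7 arrays, 180 in the fit of 51 arrays, 122 with slide as a block and 156 with the RNA balance, and 1 to 7 when 1 array was left out (1 without T-LM replicate 2 or KPT replicate 3, 2 without KPT replicate 1 or T-LM replicate 4, 3 without T-LM replicate 3 or KPT replicate 5). Samples of the same number share only that number (correlation of deviations 0.211 and −0.207 for the 2 shared numbers), and with the replicate number as a block 0 probes were called by limma (1553 at an unadjusted p under 0.05). The 1 list member called became 0 with normexp, the deposited series values, a floor on dim values, the filter on every array or the replicate block, 6 with 7 arrays, 24 with 51 arrays, 15 with slide, 18 with the RNA balance and 0 to 1 without 1 array. The distance share was 26.7% without a filter (exact permutation p = 0.0571) and 33.4% to 42.5% without 1 array. The 128 changes to P5 became 78 with no filter, 67 with the filter on every array, 48 with slide, 246 with the RNA balance, 260 without 3 P5 arrays, and 58 to 116 without 1 P4 array (58 without T-LM replicate 2, 79 without KPT replicate 5). The 28 changes to P6 became 15 with normexp, 56 with quantile normalization, 6 with the filter on every array, 5 with slide, 55 with the RNA balance and 21 to 43 without 1 P4 array (43 without KPT replicate 5). Uncalled differences near 0 changed sign: Vhl was −0.07 with the RNA balance, −0.04 with the replicate block and −0.02 to 0.15 without 1 array, Hif1a −0.06 with the replicate block, and Epas1 0.00 with the percentile of all probes, 0.01 with the series values and −0.12 to 0.02 without 1 array. The sign of the 6 called genes was kept in all 112 alternative values and the call in 69. The floor on dim values ended 4 of these calls (Ear2, Sftpd, Thrsp and Ush1c, with Ush1c at −0.06), and normexp and the series values ended those of Sftpd and Ush1c. The cause of these changes was not tested.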
